A study of Gallus gallus with 4 samples.

Results

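The genes described here are the chicken genes of apoptosis and death receptor signalling: caspases, the BCL2 family, the inhibitor of apoptosis proteins, the TNF ligand and receptor superfamilies, the TRAF adaptors and the proteins that join them. They were chosen by gene symbol in the annotation of the array platform, a rule that uses no measured value, and they comprise 55 of 13009 named genes. A probe set is a group of short probes for 1 transcript, and 111 of the 38535 probe sets of the table belong to these genes. Expression was measured on 4 Affymetrix chicken arrays in PR9692, a sarcoma-derived cell line from chickens of strain CC.R1. The anti-HOPX form was stably transfected with a short hairpin RNA (shRNA) against HOPX, a small homeodomain protein that does not bind DNA itself, and is described in the design text as non-metastatic. The control form was stably transfected with a control shRNA and is described as metastatic. Both forms share the parent line and were grown in the same serum-supplemented medium. Each form has 2 arrays, called biological replicates in the labels. Neither separate cultures nor the use of a clone or a pool is stated there. The p-values therefore measure the spread between these arrays, which may be technical. In such bulk samples fewer cells that express a gene and less RNA per cell cannot be told apart.

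Apoptosis is carried out by caspases, proteases that are made as inactive precursors. In the extrinsic route a ligand of the TNF family, such as TNFSF10 (TRAIL), clusters a receptor that carries a death domain, and the adaptor FADD then brings in the initiator caspase CASP8. In the intrinsic route BAK1 and related proteins open the outer mitochondrial membrane, cytochrome c (CYCS) escapes, and APAF1 assembles with it into the platform that activates CASP9. BID links both routes, because CASP8 cleaves it into a form that acts on mitochondria. BCL2, BCL2L1 and MCL1 hold the mitochondrial step back. Many TNF receptors signal instead through TRAF proteins to NF-kappaB. Most of these steps are regulated in proteins, by cleavage, binding and degradation, which mRNA levels do not show.

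All values are on the log2 scale and all differences are anti-HOPX minus control. HOPX itself, the gene targeted by the shRNA, read 3.21 and 3.54 on the anti-HOPX arrays, against 3.23 and 3.72 on the control arrays, at its brighter probe set. The second read 3.05 and 2.92 on the anti-HOPX arrays, against 3.08 and 3.23 on the control arrays. All of these values lie under 4, the mean over the 4 arrays that a probe set needed to be tested, so HOPX gives no check of the labels here. Across the 14851 tested probe sets Pearson's r was 0.985 between the anti-HOPX arrays and 0.992 between the control arrays, and with 2 arrays a form the precision is low. Of 8 markers of mesenchymal cells 7 had a mean of at least 4, among them the collagens COL1A1 and COL3A1 and fibronectin (FN1), and 1 of them passed the test. The markers of other cell types reached that mean at 0 of 2 epithelial, 0 of 1 erythroid, 1 of 5 leukocyte (SPI1), 1 of 4 endothelial (PECAM1) and 1 of 4 skeletal muscle (TTN) genes, and none of them passed. The leukocyte list spanned 2.39 to 8.90 in anti-HOPX cells and 2.41 to 8.26 in control cells, and the highest values of the endothelial and muscle lists were 4.57 and 4.22. The mesenchymal list spanned 2.39 to 15.90 in anti-HOPX cells and 4.16 to 15.97 in control cells. Its marker with a mean under 4 was COL1A2, which was not tested. No control value of the list lay under 4.16, so the low COL1A2 values were on the anti-HOPX side.

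Few of these genes passed the test between the forms. Of the 111 probe sets 59 reached a mean of 4 and were tested, which covers 37 of the 55 genes. In the comparison with limma, 1 of the 59 was higher in anti-HOPX cells, a probe set of the ligand TNFSF10, and 1 was lower, the initiator caspase CASP8, at a Benjamini-Hochberg adjusted p under 0.05. These are 1.69% in each direction, against 3.12% higher and 4.54% lower among all 14851 tested probe sets. Before adjustment 14 tested members, or 23.7%, had a p under 0.05, the 2 calls among them, against 25.3% of all tested probe sets. The differences of the 59 ran from -1.01 to 1.35 with a median of -0.02, and their median absolute size was 0.26, against 0.27 over all tested probe sets. The arrays of the forms did not overlap at 30 of the 59, or 50.8%, against 55.9% of all tested probe sets. These shares and sizes are near those of the whole table or below them. For 35 of the 59 the 95% interval of the difference lay wholly within a 2-fold change either way, and for the others it reached beyond. Among all 14851 tested probe sets it lay within that range for 10186.

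Both calls were close to the threshold. When an array is left out, the other array of its form is assumed to vary like the complete form, which alone gives the spread. With limma 0 of the 59 members passed without control replicate 1, where 9 had an unadjusted p under 0.05, against 1.04% of all probe sets that passed. The count was also 0 without control replicate 2, where 6 had an unadjusted p under 0.05, against 0.956% of all. It was 8, or 13.6%, without anti-HOPX replicate 2, against 11.7% of all, and 3, or 5.08%, without anti-HOPX replicate 1, against 10.4% of all. Calls over the whole table moved in the same direction as those of the members in each of these 4 settings. The wider gap between replicates was that of the anti-HOPX form at 34 of the 59 members, with a median of 0.30 in anti-HOPX cells and 0.17 in control cells. Over all tested probe sets the medians were 0.245 in anti-HOPX cells and 0.162 in control cells, so the wider gap was not particular to the members.

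**Figure D1:**
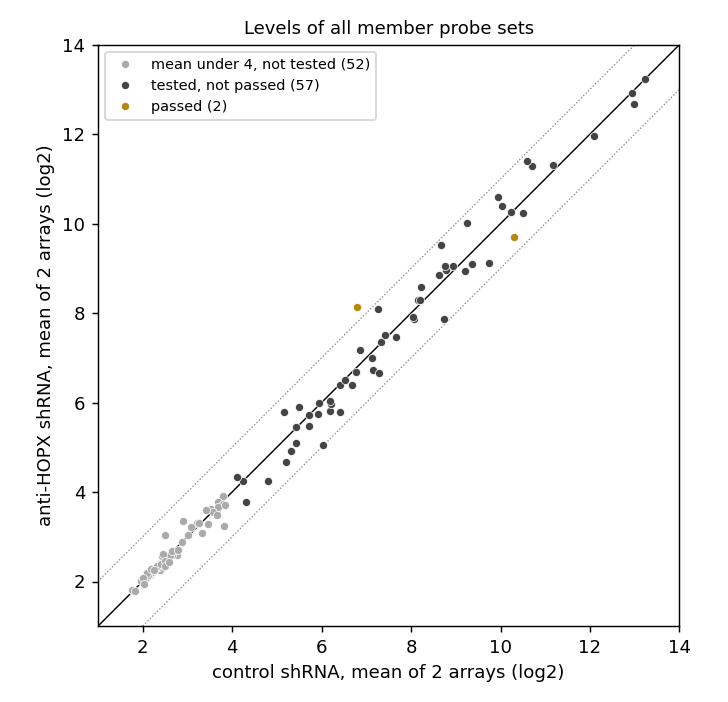
Mean log2 value of each of the 111 member probe sets in anti-HOPX cells (vertical axis) and control cells (horizontal axis), 2 arrays each. The solid line marks equal levels and the dotted lines a 2-fold difference. Grey points are the 52 probe sets with a mean under 4, black points the 57 tested ones that did not pass and ochre points the 2 that passed. Of the tested probe sets 2 lie outside the dotted lines.

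TNFSF10, the TRAIL ligand that triggers apoptosis through death receptors and is induced by interferon in mammals, was the member with the largest difference. Its probe set that passed read 8.50 and 7.78 on the anti-HOPX arrays, against 6.82 and 6.77 on the control arrays. Both anti-HOPX arrays lay above both control arrays, with means of 8.14 ± 0.51 in anti-HOPX cells and 6.80 ± 0.03 in control cells (SD, n = 2 arrays each). The difference was 1.35 (SE 0.27, limma adjusted p = 0.0468), or 2.54-fold higher. The brightest TNFSF10 probe set read 9.96 and 9.07 in anti-HOPX cells, against 8.84 and 8.48 in control cells. The next read 8.46 and 7.74 in anti-HOPX cells, against 7.45 and 7.09 in control cells. At these probe sets too the forms did not overlap, but anti-HOPX replicate 2 lay nearer to the controls than replicate 1 did. Their differences of 0.85 (SE 0.32) and 0.84 (SE 0.29) did not pass, with limma adjusted p of 0.176 and 0.151. The other 4 TNFSF10 probe sets read between 1.94 and 3.94 on all arrays and were not tested. All 3 tested TNFSF10 probe sets are of a design that can match more than 1 transcript, of the same or of a related gene.

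With its difference nearly the same, TNFSF10 did not pass without control replicate 1 (difference 1.37, adjusted p = 0.268) or without control replicate 2 (1.32, adjusted p = 0.286). Over all 11 alternatives run on this probe set its difference stayed between 0.99 and 1.71, and the adjusted p between 0.00412 and 0.286.

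The other TNF family ligands read low on every array. TNFSF11 (RANKL), TNFSF13B (BAFF), TNFSF15 (TL1A), TNFSF4 (OX40 ligand) and TNFSF8 (CD30 ligand) had no probe set with a mean of 4. The highest single reading among them was 3.85, on anti-HOPX replicate 2 at a TNFSF15 probe set that read 2.88 on anti-HOPX replicate 1, against 2.94 and 2.86 on the control arrays. That value stands on 1 array only.

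Receptors of the TNF family were represented by 15 genes, 9 of which had a tested probe set. None of their 12 tested probe sets passed with limma. Only 1, or 8.33%, had an unadjusted p under 0.05, against 25.3% of all tested probe sets. This receptor was TNFRSF1A, the main TNF receptor with a death domain, which read 11.67 and 11.11 in anti-HOPX cells, against 10.72 and 10.45 in control cells. The arrays of the forms did not overlap, and the difference of 0.80 (SE 0.22) had a limma adjusted p of 0.0907. TNFRSF1B, the TNF receptor without a death domain, has 4 tested probe sets, whose differences ran from -0.25 to 0.14 and differed in sign. At its brightest the value was 8.34 and 8.25 in anti-HOPX cells, against 7.94 and 8.36 in control cells, so the forms overlapped.

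The death receptors proper showed no call. TNFRSF10B, the receptor that binds TRAIL and that serves in chickens as the cell entry receptor of several avian leukosis virus subgroups (the TVB locus), read 7.15 and 7.78 in anti-HOPX cells, against 7.45 and 7.88 in control cells. The difference was -0.20, with a 95% interval from -0.92 to 0.52, so that the error spans changes in both directions. FAS, the receptor of FAS ligand, read 4.11 and 3.45 in anti-HOPX cells, against 4.84 and 3.78 in control cells. It is the only tested member with a group mean under 4, and the difference of -0.53 has an interval from -1.58 to 0.52. TNFRSF21 (death receptor 6) read 12.79 and 13.02 in anti-HOPX cells, against 12.88 and 12.98 in control cells. Its interval is the narrowest of the 12 tested receptor probe sets, from -0.33 to 0.28.

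Among receptors with other roles, TNFRSF8 (CD30) read 6.10 and 5.46 in anti-HOPX cells, against 6.44 and 6.37 in control cells, a difference of -0.62 (limma adjusted p = 0.222). TNFRSF11B, osteoprotegerin, a soluble decoy that binds RANKL and TRAIL, read 4.44 and 4.06 in anti-HOPX cells, against 4.94 and 4.69 in control cells. Neither gene overlapped between the forms, but the osteoprotegerin difference of -0.56 had an adjusted p of 0.206 and values close to the filter. TNFRSF11A (RANK) and TNFRSF9 (4-1BB) differed by 0.21 and -0.12. The other 6 receptor genes, TNFRSF13B, TNFRSF14, TNFRSF18, TNFRSF19, TNFRSF25 and TNFRSF6B, had no probe set with a mean of 4.

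**Figure D2:**
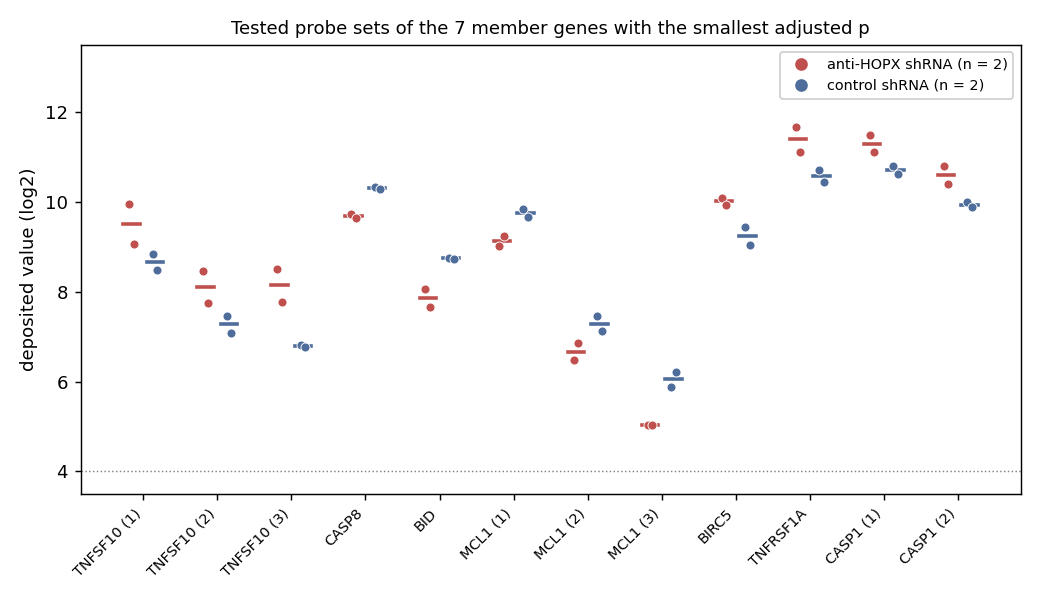
Log2 values on each array (points) and group means (bars) for the tested probe sets of the 7 member genes with the smallest adjusted p, anti-HOPX to the left of control for each, 2 arrays per form. Numbers in brackets rank the probe sets of a gene by level and the dotted line marks the minimum mean for testing. The forms do not overlap at any of the 12 probe sets, and of these the third of TNFSF10 and the CASP8 probe set passed. The genes were chosen by their adjusted p, which favours arrays that lie apart, so this is no separate result. Among all tested probe sets 55.9% do not overlap.

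The adaptors that couple receptors to caspases or to NF-kappaB gave no call. FADD, the adaptor of FAS and the TRAIL receptor, read 5.66 and 5.84 in anti-HOPX cells, against 6.21 and 5.63 in control cells. CFLAR (c-FLIP), which blocks CASP8 activation at the receptor, read 5.09 and 4.75 in anti-HOPX cells, against 5.55 and 5.08 in control cells. RIPK1, the kinase that directs TNF signalling to survival or death, read 9.06 and 8.87 in anti-HOPX cells, against 8.75 and 8.81 in control cells. FADD and CFLAR overlapped between the forms, RIPK1 did not, and the differences of -0.17, -0.40 and 0.19 had limma adjusted p of 0.738, 0.396 and 0.516. None of these 3 tested probe sets had an unadjusted p under 0.05.

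The TRAF proteins are adaptors of many TNF receptors. Of 9 tested TRAF probe sets none passed with limma and 1, or 11.1%, had an unadjusted p under 0.05, against 25.3% of all tested probe sets. TRAF2, which joins TNF receptors to the NF-kappaB and JNK pathways, read 8.90 and 9.21 in anti-HOPX cells, against 8.82 and 8.73 in control cells (difference 0.28, limma adjusted p = 0.368). The brightest probe set of TRAF6, an adaptor shared with interleukin-1 and Toll-like receptors, read 8.23 and 8.37 in anti-HOPX cells, against 8.20 and 8.23 in control cells, a difference of 0.09. The other TRAF6 probe sets differed by 0.31 and 0.40. TRAF3, a brake on non-canonical NF-kappaB signalling, gave differences of -0.08, 0.01 and -0.52 at its 3 probe sets. Only the third, at 4.70 and 4.67 in anti-HOPX cells against 5.07 and 5.33 in control cells, had an unadjusted p under 0.05 (limma adjusted p = 0.191). TRAF1 and TRAF7 differed by -0.14 and -0.12, and TRAF4 and TRAF5 were not tested because their probe sets lay under a mean of 4.

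CASP8, the initiator caspase of the death receptor route, was the only member called lower. It read 9.73 and 9.65 on the anti-HOPX arrays, against 10.33 and 10.29 on the control arrays. The forms did not overlap, and the means were 9.69 ± 0.06 in anti-HOPX cells and 10.31 ± 0.02 in control cells (SD, n = 2 arrays each). The difference was -0.62 (SE 0.13, limma adjusted p = 0.0494), or 1.54-fold lower in anti-HOPX cells, with a 95% interval from -0.94 to -0.30. The interval does not reach a 2-fold change. Only a single probe set represents CASP8, so no second measurement of it exists on these arrays. The adjusted p was 0.341 without control replicate 1, 0.343 without control replicate 2 and 0.0523 without anti-HOPX replicate 2. Over all 12 alternatives it ran from 0.0173 to 0.343, and the difference kept its sign and stayed between -0.66 and -0.58.

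Of the other initiator caspases, CASP9, which the apoptosome activates, read 6.46 and 6.53 in anti-HOPX cells, against 6.51 and 6.55 in control cells. The values overlapped and the difference of -0.03 had an interval from -0.49 to 0.42. CASP2, linked to DNA damage and mitotic stress, read 10.36 and 10.44 in anti-HOPX cells, against 10.06 and 10.02 in control cells. The forms were apart there, by 0.36 (SE 0.13, limma adjusted p = 0.152), but the second CASP2 probe set differed by -0.01. CASP18, a caspase related to CASP8 that placental mammals lack, read 6.95 and 5.85 in anti-HOPX cells, against 6.75 and 6.58 in control cells. Its anti-HOPX arrays were 1.10 apart, the widest such gap among the tested members, and enclosed both control values. CASP10 lay under 3 on all arrays.

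The executioner caspase CASP6, which cleaves nuclear lamins, read 8.63 and 8.55 in anti-HOPX cells, against 8.30 and 8.16 in control cells, a difference of 0.36 (SE 0.16, limma adjusted p = 0.232). CASP1, which processes interleukin-1 family cytokines in inflammasomes rather than driving apoptosis, has 2 tested probe sets. The brighter read 11.48 and 11.11 in anti-HOPX cells, against 10.79 and 10.62 in control cells, a difference of 0.58 (limma adjusted p = 0.102). The other read 10.80 and 10.40 in anti-HOPX cells, against 10.00 and 9.88 in control cells, a difference of 0.66 (adjusted p = 0.0889). Neither passed. Both probe sets were apart in the same direction, and the lower ends of their 95% intervals, at 0.17 and 0.22, lay above 0. Of all tested probe sets 55.9% do not overlap, and the intervals of 25.3% exclude 0. CASP14 was not tested.

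The anti-apoptotic BCL2 proteins bind and restrain the proteins that open mitochondria. None of their 10 tested probe sets passed with limma and 3, or 30%, had an unadjusted p under 0.05, against 25.3% of all tested probe sets. All 3 were of MCL1, a short-lived member of the family. The brightest MCL1 probe set read 9.01 and 9.24 in anti-HOPX cells, against 9.83 and 9.67 in control cells. The next read 6.48 and 6.85 in anti-HOPX cells, against 7.45 and 7.12 in control cells, and the third read 5.03 and 5.04 in anti-HOPX cells, against 5.87 and 6.22 in control cells. At all 3 both anti-HOPX arrays lay under both control arrays. The differences were -0.62, -0.61 and -1.01, with limma adjusted p of 0.0797, 0.174 and 0.0518, so MCL1 missed the threshold at each. The brightest passed with the replicate block (adjusted p = 0.032) and without anti-HOPX replicate 2 (0.0441), and its adjusted p ran from 0.032 to 0.425 over 12 alternatives. The third passed with the replicate block (0.0193) and without the intensity trend (0.0474), in a range from 0.0193 to 0.312 over 10 alternatives. The remaining MCL1 probe set read 2.30 to 2.36 on all arrays and was not tested.

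The other tested anti-apoptotic members had smaller differences than MCL1, and of them only BCL2L10 parted the forms. The brightest BCL2 probe set read 7.40 and 7.31 in anti-HOPX cells, against 7.23 and 7.41 in control cells, and its 3 tested probe sets differed by 0.03, -0.24 and 0.03. BCL2L1 (BCL-X) read 10.04 and 10.48 in anti-HOPX cells, against 10.20 and 10.27 in control cells, a difference of 0.02 with an interval from -0.43 to 0.48. The second tested BCL2L1 probe set differed by -0.28. The values of both genes overlapped between the forms. BCL2L10, the avian survival protein NR-13, first known as a gene switched on by the viral Src oncoprotein in quail cells, read 12.51 and 12.86 in anti-HOPX cells, against 12.91 and 13.04 in control cells. That difference was -0.29 (limma adjusted p = 0.279), and the second BCL2L10 probe set gave -0.43 (adjusted p = 0.335). At both BCL2L10 probe sets the anti-HOPX arrays lay under the control arrays, as at MCL1, and neither passed. Among all tested probe sets 55.9% do not overlap. BCL2A1 read 2.30 to 2.42 on all arrays and was not tested.

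Of the 6 tested probe sets of pro-apoptotic BCL2 relatives none passed with limma. Only that of BID had an unadjusted p under 0.05, or 16.7%, against 25.3% of all tested probe sets. BID, the substrate of CASP8 that carries the death receptor signal to mitochondria, read 8.06 and 7.67 in anti-HOPX cells, against 8.76 and 8.72 in control cells. Both anti-HOPX arrays were lower, and the difference of -0.87 (SE 0.19) had a limma adjusted p of 0.0564. The adjusted p was 0.0241 without anti-HOPX replicate 1, and over all 12 alternatives it ran from 0.0121 to 0.334. BAK1, a pore-forming effector, read 11.11 and 11.52 in anti-HOPX cells, against 11.15 and 11.19 in control cells, and its 2 probe sets differed by 0.15 and -0.14. BCL2L13, a mitochondrial member also known as a mitophagy receptor, gave differences of 0.64 and -0.33 at its 2 probe sets, both with overlapping forms. The first read 5.62 and 5.95 in anti-HOPX cells, against 5.65 and 4.64 in control cells, and its difference was 0.13 without control replicate 2 and 1.15 without control replicate 1. BCL2L14 differed by 0.00 and was close to the filter, while BOK and BCL2L15 were not tested.

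The apoptosome genes gave no call with limma. CYCS, cytochrome c, read 13.18 and 13.27 in anti-HOPX cells, against 13.21 and 13.27 in control cells, a difference of -0.01 with an interval from -0.25 to 0.23. The second CYCS probe set differed by -0.26 (limma adjusted p = 0.301). APAF1 read 7.78 and 7.95 in anti-HOPX cells, against 8.06 and 8.07 in control cells. The APAF1 arrays were apart by little, and the difference of -0.20 had an interval from -0.62 to 0.22. At the second tested APAF1 probe set the difference was -0.38, and the forms overlapped. None of the 4 tested apoptosome probe sets had an unadjusted p under 0.05.

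Among the inhibitor of apoptosis proteins, BIRC5 (survivin), which also serves in chromosome segregation at mitosis, read 10.09 and 9.93 in anti-HOPX cells, against 9.45 and 9.04 in control cells. The forms did not overlap, and the difference of 0.76 (SE 0.19) had a limma adjusted p of 0.072. BIRC2 (cIAP1), a ubiquitin ligase of TNF receptor complexes, read 8.52 and 9.37 in anti-HOPX cells, against 9.13 and 9.29 in control cells. Here the anti-HOPX arrays enclosed both control arrays, and the difference was -0.26. BIRC6, a giant ubiquitin-conjugating enzyme, differed by 0.13 and 0.23 at its 2 tested probe sets. None of the 4 tested probe sets of these inhibitors passed with limma, and 1, or 25%, had an unadjusted p under 0.05, against 25.3% of all tested probe sets. XIAP, which inhibits active caspases directly, was not analysed here.

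**Figure D3:**
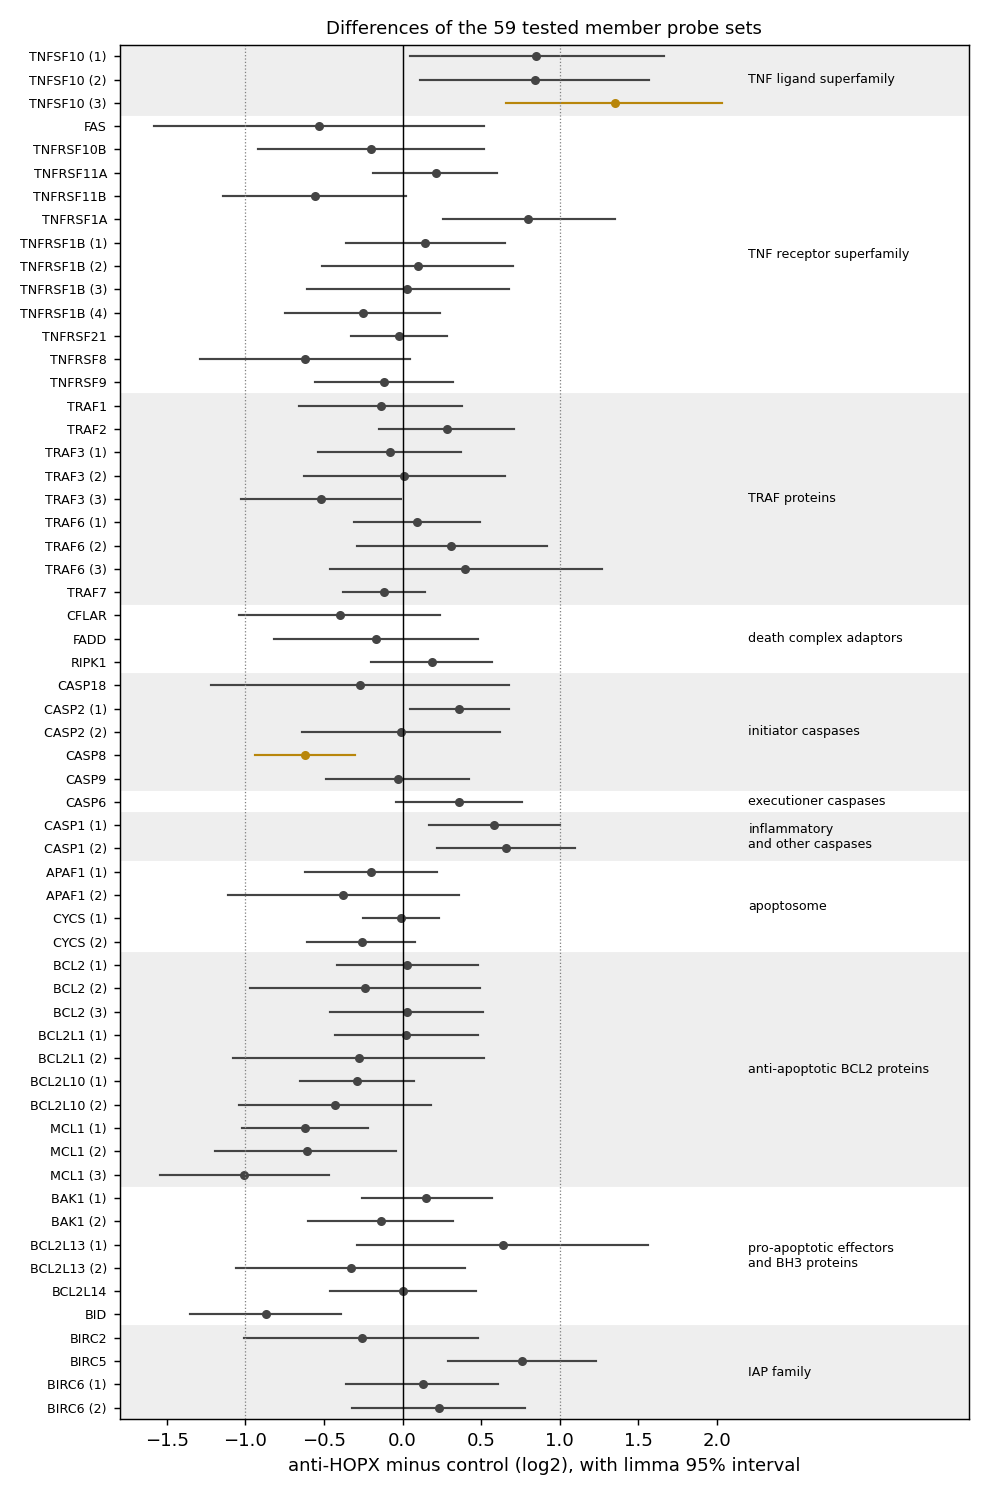
Difference, anti-HOPX minus control on the log2 scale, with limma's 95% interval (not adjusted for the number of tests), for the 59 tested member probe sets, grouped by role. Numbers in brackets rank the tested probe sets of a gene by level, dotted lines mark a 2-fold change and ochre marks the 2 that passed. The intervals of 14, or 23.7%, exclude 0, against 25.3% of all tested probe sets. Among the 14 are all those of TNFSF10, MCL1 and CASP1.

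How far probe sets of a gene resembled each other sets how firmly a gene can be described. Of the 15 member genes with 2 or more tested probe sets, 8 had differences of 1 sign and 7 of both signs. MCL1, TNFSF10 and CASP1 belong to the first kind, while BAK1, BCL2, BCL2L1, BCL2L13, CASP2, TNFRSF1B and TRAF3 make up the other. The widest disagreement was that of BCL2L13, at 0.97. Of the 59 tested probe sets 20 have names ending in _s_at or _a_at, which mark probes shared by several transcripts, among them those of TNFSF10, BID, BIRC5, TNFRSF1A and CASP1. The CASP8 probe set is not of this kind.

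The remaining 52 probe sets had a mean under 4. They read between 1.74 and 4.12 and include all probe sets of 18 genes. In this range low transcript levels and probe sets that do not respond cannot be told apart, and no difference is read from them. Only 2 of the 52 differed by more than 0.5. These were the BIRC2 probe set at 2.39 and 3.70 in anti-HOPX cells, against 2.52 and 2.50 in control cells, and the TNFRSF18 probe set at 3.08 and 3.41 in anti-HOPX cells, against 3.49 and 4.12 in control cells.

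Genes that act with these proteins were taken from a separate list of 94 symbols, of which 77 had a probe set and 59 were tested at their brightest probe set. With limma 2 were higher and 1 was lower, or 3 of 59. Among all 7691 tested genes 3.63% were higher and 5.24% lower. The gene that fell was AIFM2, also known as FSP1, a flavoprotein that reduces coenzyme Q and protects membrane lipids from peroxidation. It read 4.77 and 4.74 in anti-HOPX cells, against 7.63 and 7.62 in control cells. Replicates were nearly identical, and the difference of -2.88 (SE 0.18, limma adjusted p = 0.00154) is 7.34-fold, larger than that of any member. AIFM2 kept its call in all 12 alternatives, with an adjusted p from 5.1e-05 to 0.0331.

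RIPK3, the kinase that triggers necroptosis in mammals, rose. It read 8.82 and 8.89 in anti-HOPX cells, against 7.59 and 7.97 in control cells, a difference of 1.07 (SE 0.19, limma adjusted p = 0.0352), or 2.1-fold. A second tested RIPK3 probe set read 4.72 and 4.47 in anti-HOPX cells, against 3.58 and 4.05 in control cells. Its control mean of 3.82 lies under the filter of 4, so that it was tested only through its anti-HOPX values, and its difference of 0.77 did not pass (adjusted p = 0.123). MAP3K14 (NIK), the kinase that starts non-canonical NF-kappaB signalling and that TRAF3 keeps low, rose as well. Its values were 7.98 and 8.43 in anti-HOPX cells, against 6.87 and 7.20 in control cells, a difference of 1.17 (SE 0.23, adjusted p = 0.0447), or 2.25-fold. The name of this MAP3K14 probe set ends in _s_at, which marks probes shared by several transcripts. The other MAP3K14 probe set lay under 4 and read 2.91 and 2.95 in anti-HOPX cells, against 3.11 and 3.10 in control cells. Without the filter on low values RIPK3 (limma adjusted p = 0.134) and MAP3K14 (0.165) did not pass at their brightest probe sets. Nor did MAP3K14 without the intensity trend (adjusted p = 0.0541). RIPK3 lost its call without control replicate 1 (difference 0.88, adjusted p = 0.264) and without control replicate 2 (1.26, adjusted p = 0.168), and its adjusted p ran from 0.00452 to 0.264 over all 12 alternatives. MAP3K14 lost it without control replicate 1 (1.01, adjusted p = 0.292), control replicate 2 (1.33, adjusted p = 0.218) or anti-HOPX replicate 2 (0.95, adjusted p = 0.0604), with a range from 0.00358 to 0.292.

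The 4 genes of this list with the largest differences that did not pass all had negative differences. Over all 59 tested genes of the list 31 differences were above 0 and 28 below. VDAC1, a channel of the outer mitochondrial membrane, read 11.24 and 10.16 in anti-HOPX cells, against 12.01 and 11.95 in control cells, a difference of -1.28 (limma adjusted p = 0.0889). Its anti-HOPX arrays lay far apart (SD 0.76), against an SD of 0.04 in control cells. The difference was -1.82 without anti-HOPX replicate 1 and -0.73 without anti-HOPX replicate 2, where the control arrays alone give the spread. FAIM, an inhibitor of FAS-induced death in mammals, read 6.89 and 6.15 in anti-HOPX cells, against 7.86 and 7.18 in control cells (limma adjusted p = 0.151). ROCK1, a kinase that caspases cleave to drive membrane blebbing, read 9.49 and 9.47 in anti-HOPX cells, against 9.72 and 10.71 in control cells, a difference of -0.74 (adjusted p = 0.227). It was -0.25 without control replicate 2, the high array, and -1.23 without control replicate 1. TANK, a TRAF-binding regulator, differed by -0.56 (adjusted p = 0.133). Of the 14 tested genes of the NF-kappaB arm 1 passed, MAP3K14, or 7.14%, against 8.87% of all tested genes. With limma 3, or 21.4%, had an unadjusted p under 0.05, against 27.7% of all. The forms did not overlap at 7, or 50%, against 58.2% of all, and all 7 had the higher values in anti-HOPX cells. Over all tested genes 30% did not overlap and were higher in anti-HOPX cells. The median difference of this arm was 0.20, against 0.02 over all tested genes, with 10 differences above 0 and 4 below. RELA and NFKB2, which belong to this arm, lay under a mean of 4 and were not tested. A shift of the pathway was not tested. BH3-only proteins and partners of BCL2 gave 0 calls with limma in 12 tested genes, of which 4, or 33.3%, had an unadjusted p under 0.05, against 27.7% of all tested genes. Among the genes of this group with a mean under 4, which were not tested, were the BH3-only genes BIK, BMF and PMAIP1.

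**Figure D4:**
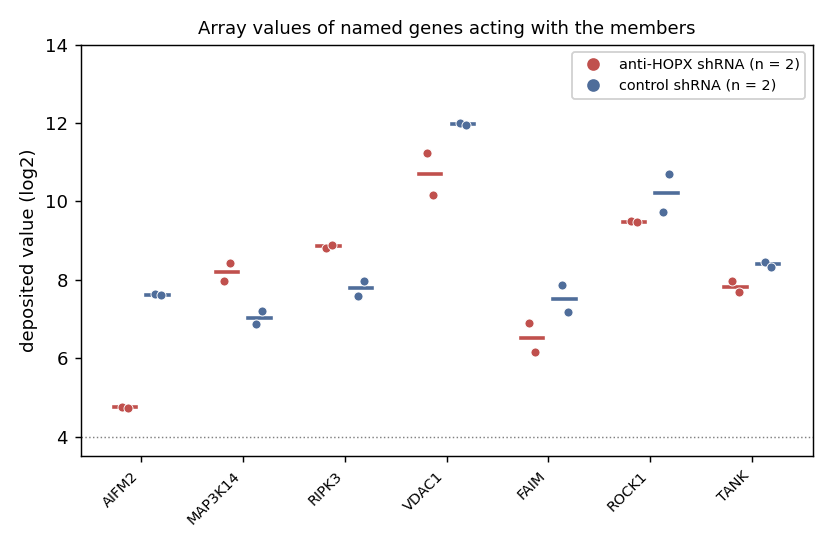
Log2 values on each array (points) and group means (bars) for AIFM2, MAP3K14 and RIPK3, which passed, and for VDAC1, FAIM, ROCK1 and TANK, which did not, with anti-HOPX to the left of control and 2 arrays per form. AIFM2 stands out by its gap of 2.88 between tightly grouped replicates.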

How the data were processed

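The authors deposited 1 value per probe set and array on the log2 scale. No label names the scale, which was taken from the range of 0.753 to 15.97. Per the submitters' processing notes GCRMA and Partek 6.4 were used, with no roles given. Where GCRMA is used, its background model draws weak signals together, so differences of weak genes can be understated. The GCRMA version is not given in the sources used here, and the design gives no batch.

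The 96 control probe sets were left out and probe sets with a mean of at least 4 over the 4 arrays were kept. The comparison was fitted over all 14851 kept probe sets with limma 3.58.1 in R 4.3.3 (lmFit, eBayes with an intensity trend, 2 residual and 3.54 prior degrees of freedom), with p adjusted by Benjamini-Hochberg over all of them. A call is an adjusted p under 0.05, two-sided. An exact permutation test of 2 arrays against 2 cannot go below p = 0.33. The procedure was tested on simulated data. Members carry the platform's symbols, and all 55 genes were held by the RefSeq table of assembly GRCg7b. A gene is represented by its brightest probe set, with its other tested ones beside it. Errors are limma standard errors. Intervals are at the 95% level. Columns mapped to no sample numbered 0.

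By the naming rule the text names HOPX, members that passed, core members, the 8 unpassed genes with the largest differences, and, of the other death genes, those that passed and 4 that did not. Further members are named to account for all of them. Members, lists and rules were chosen with earlier results of these data known. The alternatives were no filter or a mean of at least 6, other variance models, further normalisation, a 2-fold minimum, 1 probe set per gene, the replicate block and leaving out each array. The further probe sets of MCL1, TNFSF10 and CASP1 were added to these alternatives after their values were seen.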

Additional observations from a re-analysis of the deposited data

How the results depend on the processing

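Of 59 tested members 2 changed, 1 higher and 1 lower. With limma the number was 0 of 111 without a filter on low values (0 higher, 0 lower, 13 at an unadjusted p under 0.05), 1 without the intensity trend (0 higher, the 1 lower being MCL1, with CASP8 at an adjusted p of 0.0792 and TNFSF10 at 0.0581), 1 with a robust prior (0 lower), 1 with array medians subtracted (0 lower) and 1 at a 2-fold minimum (0 lower). With a mean of at least 6, 3 of 43 members passed (1 higher, 2 lower), or 6.98% against 10% of all tested probe sets. With 1 probe set per gene 0 were higher and 2 lower, or 5.41% against 10.1% of all tested genes. Quantile normalisation again left the counts as they were, at 3.39% against 7.22%. Without the filter the shares were 0% and 0.713%. A single call was 1.69% of members, against 5.92% of all without the trend and 7.37% with a robust prior. Against the same 1.69% stood 7.6% with medians subtracted and 5.48% at a 2-fold minimum. Leaving out single arrays gave 0 to 8 changed members (0 to 6 higher, 0 to 2 lower), while calls over all 14851 probe sets ranged from 142 to 1734. With the replicate block 11 members passed (7 higher, 4 lower), or 18.6% against 18.2% of all tested probe sets, and 6 of the other death genes (3 lower). Replicate numbers alone do not pair the cultures, and the deviations of same-numbered arrays correlated at 0.253. Among the other death genes 1 changed without the filter (0 higher) and 1 was higher without the trend. Leaving out arrays gave 1 to 6 changed (0 to 2 higher, 1 to 4 lower).

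Sign changes fell on differences that did not pass. CASP9 turned to 0.03 and CYCS to 0.00 after quantile normalisation, and CYCS to 0.02 with medians subtracted. When single arrays were left out, BAK1 ran from -0.05 to 0.36, BCL2 from -0.05 to 0.12, BCL2L1 from -0.20 to 0.24, BIRC2 from -0.69 to 0.16, CYCS from -0.06 to 0.03 and FADD from -0.46 to 0.12. FAS ran from -1.07 to 0.00, TNFRSF10B from -0.52 to 0.12 and TNFRSF1B from -0.07 to 0.35. Of the results for single probe sets 411 kept their direction and side of the threshold, 19 lost a call, 23 gained one and 16 changed sign. The causes of these changes were not tested. With 2 arrays per form the median half-width of the members' 95% intervals, which are not adjusted for the number of tests, was 0.50. After adjustment larger differences mostly did not pass either. Of the 17 tested members that differed by more than 0.5 only a TNFSF10 probe set and CASP8 passed. Differences of this size made up 28.8% of the tested members, against 26% of all tested probe sets. The calls were 3.39% of the tested members, against 7.66% of all.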
